A study of Homo sapiens with 4 samples.

Results

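The regions described here are 1557 ERRα binding sites that lie inside protein-coding genes, over 1 kb but at most 10 kb from the nearest end of any protein-coding gene. They were chosen by position alone, from the summits (the point of highest signal) of peaks matched between 2 ERRα ChIP-seq libraries, and make up 1557 of 10026 matched summits on chromosomes 1 to 22 and X (15.5%, exact 95% interval 14.8 to 16.3). The cells were MDA-MB-231, an established human breast cancer line, grown in serum-containing medium with no treatment named in the labels, so all libraries share this background and there is no other condition to compare. ERRα-bound chromatin was precipitated in replicates 1 and 2, and 2 input libraries without antibody served as background. The read numbers in the labels lack a clear exponent and are taken here as 29 M for the ERRα libraries and 10 M for the inputs, as paired reads of 81 bp. The labels do not say whether the replicates came from separate cultures, so their spread may be technical. Chromatin was fixed with 1% formaldehyde and each ChIP used 5 µg of an antibody to ERRα.

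ERRα, encoded by ESRRA, is an orphan nuclear receptor. It needs no hormone and binds DNA as a monomer or dimer at the ERR response element, an AGGTCA core with a short extension before it. Together with coactivators of the PGC-1 family it switches on genes of mitochondrial respiration, fatty acid use and glucose metabolism, and in breast cancer cells it has been studied for roles in growth and invasion. Sites inside a gene, a few kilobases from its start, are a usual place for enhancers and for the promoters of shorter transcripts.

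Some of these intragenic summits lay on a transcription start that the outer gene boundary does not show. RefSeq lists several starts for many genes, and 26 of the 1557 summits fell inside a listed promoter window, which runs from 250 bases before to 50 bases after a start (RefSeq, GRCh38.p14). The windows are the only stretches whose bases were read, and they hold 29 start sites in all because some summits lie in overlapping windows. The extended ERR element TNAAGGTCA was searched on both strands, and its core AGGTCA likewise, which lies inside the extended element. The extended element was present in 5 of the 29 windows (17.2%, exact 95% interval 5.85 to 35.8), against 334 of all 34960 promoter windows (0.955%). Windows with any matched summit, reproducible or not, held it in 47 of 484 cases (9.71%). Of the windows with a reproducible summit of this class, 3 of 16 held it (18.75%, exact 95% interval 4.05 to 45.6). Windows with a reproducible summit from anywhere in the series held it in 34 of 216 cases (15.7%), and those with one within 1 kb of a gene end in 20 of 165 (12.1%). These shares were not compared by a test. The consensus TCAAGGTCA was in 4 of the 29, against 0.355% of all windows. A match of letters is a description and does not show that the receptor touches these bases.

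The 3 reproducible summits with an extended element are printed first, because the element lies almost at the summit in each. Sequences run 5′ to 3′ on the strand of the listed transcript, and capitals mark the element, which is read TGACCTTGA here since it lies on the opposite strand.
TMEM127, chr2:96260566-96260672, minus strand: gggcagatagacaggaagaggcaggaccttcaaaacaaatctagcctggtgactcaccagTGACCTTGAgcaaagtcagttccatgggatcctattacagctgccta
MYL3, chr3:46861731-46861859, minus strand: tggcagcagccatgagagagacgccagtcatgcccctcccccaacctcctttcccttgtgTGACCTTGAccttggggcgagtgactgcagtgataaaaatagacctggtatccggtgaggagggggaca
C1QTNF1-AS1, chr17:79027673-79027801, minus strand: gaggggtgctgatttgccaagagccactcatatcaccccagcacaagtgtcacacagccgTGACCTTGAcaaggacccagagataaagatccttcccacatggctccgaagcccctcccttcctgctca
In TMEM127, a gene of a membrane protein that restrains mTOR signalling and acts as a tumour suppressor, the summit lay 1 bp from a listed start, and the centre of the element lay 12 bp from the summit. In MYL3, a myosin light chain gene of heart and slow muscle, the element was centred 1 bp from the summit and at -111 bp relative to the start. C1QTNF1-AS1 is a non-coding RNA gene on the opposite strand within C1QTNF1, a gene of a secreted C1q-like protein, and its element was centred 5 bp from the summit. The folds over input were 15.3 in replicate 1 and 14.3 in replicate 2 for MYL3, and 9.15 and 10.5 for C1QTNF1-AS1, far below those of TMEM127 given further on. The remaining windows with an extended element held summits that did not pass the reproducibility threshold, in TNFAIP6 (folds of 7.77 and 7.12, element centre 14 bp from the summit) and in GRSF1 (6.09 and 6.04, 69 bp).

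The core AGGTCA was also searched near the summits, counting the core inside an extended element. Of the 15 reproducible summits in a promoter window, 8 had a core that reached within 25 bp of the summit (53.3%, exact 95% interval 26.6 to 78.7). These 8 include the 3 printed above, and among the 12 reproducible summits whose window held no extended element 5 had a core there (41.7%, exact 95% interval 15.2 to 72.3). Over all 34960 windows, 2.72% held a core at the same places. Of the 11 summits that did not pass the reproducibility threshold, 2 had one, against 2.81% at the same places in all windows. Among other reproducible summits in promoter windows, the share was 43 of 136 within 1 kb of a gene end. Over 10 kb inside a gene it was 10 of 15. Within 25 bp, the extended element was found at 3 of 15 summits here, 8 of 136 at gene ends and 5 of 15 deep inside. None of these differences was tested. The next 4 sequences show windows with the core alone near a reproducible summit, with the core in capitals (TGACCT where it lies on the opposite strand).
PFKP, chr10:3068939-3069024, plus strand: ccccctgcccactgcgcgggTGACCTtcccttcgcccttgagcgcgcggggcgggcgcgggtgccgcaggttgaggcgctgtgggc
SMAD7, chr18:48942804-48942929, minus strand: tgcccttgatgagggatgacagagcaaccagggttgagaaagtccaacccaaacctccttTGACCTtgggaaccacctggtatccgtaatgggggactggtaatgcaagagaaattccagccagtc
SRPK2, chr7:105389393-105389518, minus strand: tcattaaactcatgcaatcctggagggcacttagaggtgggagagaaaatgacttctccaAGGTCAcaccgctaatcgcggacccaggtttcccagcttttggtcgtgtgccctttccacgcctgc
PRR7-AS1, chr5:177447954-177448079, minus strand: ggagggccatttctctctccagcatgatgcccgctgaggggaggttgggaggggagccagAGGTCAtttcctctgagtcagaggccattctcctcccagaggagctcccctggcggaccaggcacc
In PFKP, the platelet-type phosphofructokinase of glycolysis, the core lay 6 bp from the summit and reads GGAAGGTCA with the 3 bases before it. In SMAD7, an inhibitor of TGF-beta signalling, it lay 3 bp from the summit and reads CCAAGGTCA. The same CCAAGGTCA was 20 bp from the summit in SRPK2, a kinase of splicing factors. In PRR7-AS1, a non-coding RNA gene within PRR7, the core lay 13 bp from the summit and reads CAGAGGTCA. The summit in PRR7 had folds of 21.8 and 21.6, and that in SRPK2 15.98 and 9.27, so the replicates were far apart in SRPK2. Letters of other factors were counted in the same 29 windows. The AP-1 motif TGANTCA was in 6 (20.7%, exact 95% interval 7.99 to 39.7), against 7.68% of all windows, and the TEAD motif GGAATG also in 6, against 14.04%. The cAMP response element TGACGTCA was in 3 (10.3%, 2.19 to 27.4), against 1.85%.

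**Figure D1:**
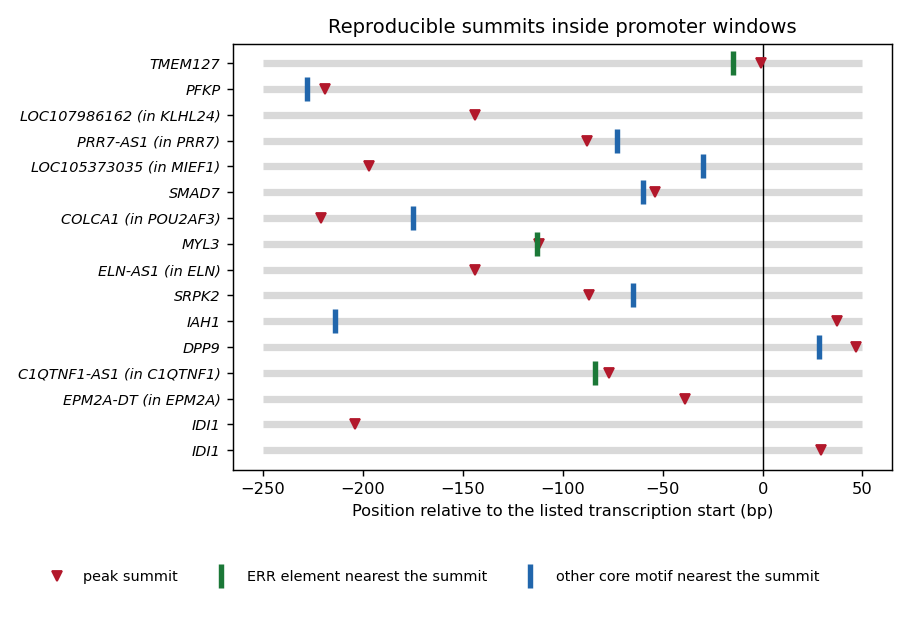
Reproducible summits that lie inside a listed promoter window, 1 line per window, with the position in bp relative to the listed transcription start on the horizontal axis. Triangles are summits, green marks the extended ERR element and blue another AGGTCA core, in each case the match nearest the summit. In TMEM127, MYL3 and C1QTNF1-AS1 a green mark lies beside the triangle, and in PFKP, SMAD7, PRR7-AS1, DPP9 and SRPK2 a blue one does.

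Counting the 26 summits in promoter windows, 129 of 1519 (8.49%) lay within 1 kb of a listed start, 103 of them at a start of the gene that holds them and 26 at the start of a non-coding RNA gene. These counts leave out chromosome 8, for which listed starts were not used here. Of the 1519 summits, 1221 lay in a gene with any listed start. The others could not count as near a start of their own gene. The places within 1 kb of a listed start made up 6.42 Mb of the stretches that the position rule covers and held 20.1 matched summits per Mb. The remaining 245 Mb held 5.67 per Mb. For reproducible summits the densities were 9.35 and 2.90 per Mb. The summits near a listed start had a median fold of 8.49, and those farther away one of 8.54. Most of the sites were thus away from any start listed here, but the places farther away include genes whose starts are not listed. Whether a site is exonic or intronic was not analysed here.

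Reproducibility was judged by the irreproducible discovery rate (IDR), which ranks peaks in both replicates and estimates the share that would not be found again. Of the 1557 summits, 794 (51.0%, exact 95% interval 48.5 to 53.5) passed an IDR of 0.05, against 50.4% of all matched summits. The shares were 50.2% within 1 kb of a gene end, 50.1% over 10 kb inside a gene and 50.5% outside genes. The median fold enrichment over input, as the mean of both replicates, was 8.56 with an interquartile range of 6.45 to 13.02. It was 8.75 in replicate 1 and 8.46 in replicate 2. The corresponding medians were 8.52 at gene ends, 8.38 deep inside genes and 8.40 outside genes. In replicate 1 they were 8.52, 8.66 and 8.60, and in replicate 2 8.46, 8.26 and 8.24. The 1557 were thus slightly above the deep and outside summits in both replicates, which was not tested. For the mean of both replicates these gaps were smaller than 0.207, the SD of the replicates' medians of the 1557. Their median width was 643 bp, against 642 bp for all matched peaks.

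The replicates gave similar folds at most sites. Replicate 1 was higher at 818 of the 1557 (52.5%), and the median ratio of replicate 1 to replicate 2 was 1.01. The folds were more than 2 times apart at 11 sites, 0 of which passed IDR. That threshold selects for agreement, and every matched site needed a called peak in both libraries. The likeness of the folds is thus no separate evidence of agreement. The summits called in both libraries lay a median of 36 bp apart. By strength, 103 sites had a mean fold below 5, and 0 of these passed. Of 858 sites with a fold of 5 to 10, 207 passed (24.1%), and of 388 with a fold of 10 to 20, 379 did. All 171 sites of 20 to 50, all 32 of 50 to 100 and all 5 above 100 passed.

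**Figure D2:**
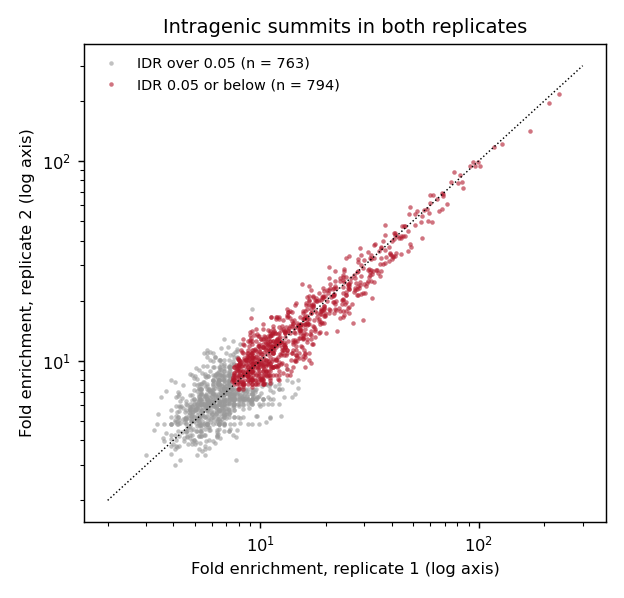
Fold enrichment over input of the 1557 intragenic summits in replicate 1 (horizontal, log axis) and replicate 2 (vertical, log axis), 1 point per summit, with the line of equal values dotted. The 794 summits at an IDR of 0.05 or below (red) lie along the line at higher folds, and the 763 others (grey) spread around it at lower folds.

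Summit density was lower farther from the gene end, and within 1 to 10 kb the fall was on the side of the start. From 1 to 2 kb inside there were 8.88 matched summits per Mb, and from 9 to 10 kb inside 3.46 per Mb. Beyond 10 kb inside genes the density was 3.19 per Mb. Over the whole 261 Mb that the rule covers it was 5.96 per Mb, against 3.31 per Mb over the length of all these chromosomes, 3030 Mb. Where strand was known and the nearest end was the gene's own start, the density went from 13.7 per Mb at 1 to 2 kb to 3.81 per Mb at 9 to 10 kb. On the side of the gene's finish it showed no steady fall, with 3.72 per Mb at 1 to 2 kb, 5.12 at 3 to 4 kb and 3.53 at 9 to 10 kb. Taken over the full 1 to 10 kb, 689 summits were nearest the start of their gene (7.36 per Mb) and 376 nearest its finish (4.11 per Mb). A further 313 were nearest an end of their own gene whose strand was not known, and 179 nearest an end of another gene. Reproducible summits showed 3.92 per Mb on the start side and 1.99 on the finish side. Over all matched summits of each side, the median folds were 8.81 and 8.25. The difference between the sides has no test, since both come from the same 2 libraries.

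**Figure D3:**
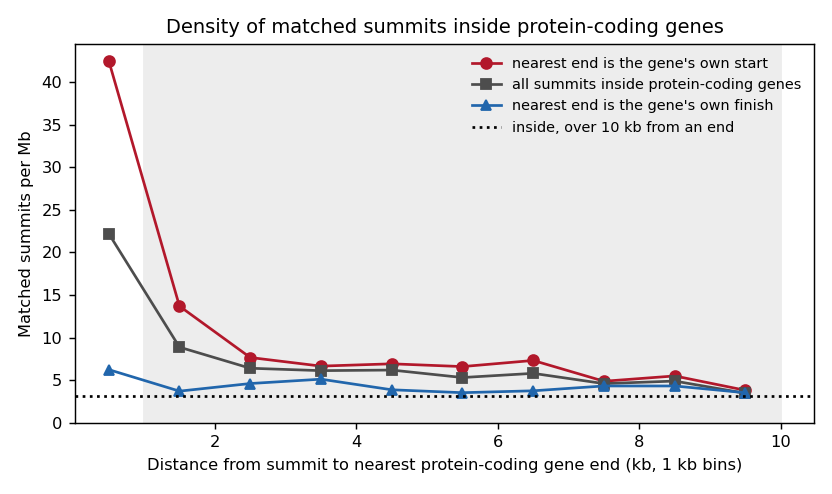
Matched summits per Mb of protein-coding gene against the distance to the nearest protein-coding gene end in bins of 1 kb, with the 1 to 10 kb range of the sites shaded. Within the shaded range the start side (red) falls from 13.7 per Mb at 1 to 2 kb to 3.81 at 9 to 10 kb. There the finish side (blue) stays between 3.53 and 5.12. In the bin of 0 to 1 kb the start side stands at 42.5 per Mb and the finish side at 6.24. The dotted line marks 3.19 per Mb deeper inside genes.

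The values on either side of the limits of the rule were as follows. The summits closest to the lower limit were those in DLGAP3, 1007 bp from an end (mean fold 11.0 ± 0.995, SD, n = 2), and in the glucocorticoid receptor gene NR3C1, 1010 bp (7.26 ± 1.21). Just outside it lay summits in SCARF1 (5.27 ± 0.618) and CCR10 (5.39 ± 1.31), each 1000 bp from an end. At the upper limit, CASP5 (9995 bp, 7.03 ± 0.876) and EXOC2 (9992 bp, 8.39 ± 0.882) were inside, and SLCO4A1 (10006 bp, 6.24 ± 0.981) and STAT5B (10014 bp, 8.77 ± 1.58) outside. Of these, NR3C1, SCARF1, CCR10, CASP5 and SLCO4A1 did not pass IDR.

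The strongest site was that of TMEM127, whose sequence is given above. The peak covered chr2:96259741-96261235 (GRCh38) with a summit 5.40 kb inside the gene from its start, and reached folds of 233 in replicate 1 and 215 in replicate 2 (mean 224 ± 12.3, SD, n = 2). The next was in EGFLAM, a gene of an extracellular matrix protein, 1.05 kb from the finish of the gene, with folds of 209 and 194 (202 ± 10.7). The site in CETP, which encodes the plasma cholesteryl ester transfer protein, lay 2.86 kb inside from the start, with 171 and 141 (156 ± 21.7). CETP was the site of the first 12 with the widest gap between replicates.

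EIF3C and EIF3CL encode the same subunit of a translation initiation complex from 2 copies on chromosome 16. The site in EIF3C had folds of 128 and 121 and that in EIF3CL 77.0 and 88.1, and both summits lay exactly 3.08 kb from a gene end. Reads from such copies may be assigned to either, so these sites cannot be counted as independent. In CABP7, a calcium-binding protein gene, the folds were 117 and 118 (117 ± 0.298), and in PXMP4, a gene of a peroxisomal membrane protein, 99.8 and 99.4 (99.6 ± 0.271). ZBTB4, a zinc finger repressor that reads methylated DNA, had 102 and 94.8.

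A summit covered by both DHX8, a splicing helicase gene, and ETV4, an ETS transcription factor gene, had folds of 94.2 and 99.4. The zinc finger gene ZNF827 had 96.7 and 94.3. In TRIOBP, which encodes a protein that bundles actin, the folds were 91.6 and 94.7. CTNS, the lysosomal cystine exporter gene, had 82.2 and 85.1. The first 3 sites stood above the others in both replicates, and each neighbouring pair in the order from PXMP4 to TRIOBP overlapped in its folds. Of the 10 strongest matched peaks of the series, 1 was of this class, of the 100 strongest 16, and of the 1000 strongest 169 (16.9%), close to the 15.5% it makes of all.

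**Figure D4:**
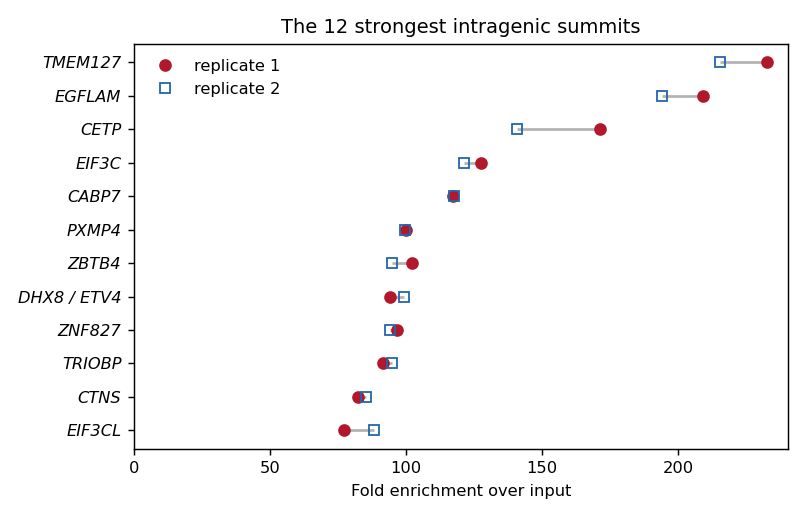
Fold enrichment over input in replicate 1 (filled circle) and replicate 2 (open square) for the 12 strongest intragenic summits, named by the gene or genes that hold them. Values run from 233 and 215 in TMEM127 to 77.0 and 88.1 in EIF3CL.

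The 794 reproducible sites lay in 776 protein-coding genes, which is 4.16% of the 18676 genes that have any position the rule can cover. One site each was found in 728 of them, 2 in 46 and 3 in 2. The genes with 3 were MFNG, which encodes a Fringe enzyme that modifies Notch receptors, and SDC4, which encodes the cell-surface proteoglycan syndecan-4. MFNG had mean folds of 31.4 ± 3.37, 9.99 ± 0.679 and 8.41 ± 0.492 (SD, n = 2), and SDC4 15.7 ± 1.00, 12.5 ± 2.16 and 9.63 ± 1.25. Each gene also held a further matched summit that did not pass IDR. Of the 46 genes with 2, TRIOBP had the largest summed fold, with a site of 16.4 ± 3.39 besides the strong one. The widest reproducible peaks were in SIPA1, a GTPase-activating protein gene (3137 bp, fold 32.0 ± 5.39), at ALDOA (2751 bp) and in BCL2L1, which encodes an inhibitor of apoptosis (2636 bp, 15.3 ± 0.100). Of the 1557 sites, 66 were covered by 2 or more genes, and each of these is then counted.

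Few of these genes carried a reproducible summit at their own end as well. Of the 776 genes, 59 (7.60%) did, against 4.63% of the 18676. Longer genes can hold more sites, and the genes with a site had a median length of 35.3 kb against 27.4 kb for all 18676. Among genes with 10 to 18 kb of positions under the rule, 49 of 568 genes with a summit at an own end also held an intragenic one (8.63%), and 526 of 11408 others did (4.61%). Among the 1445 genes with more than 18 kb, where genes overlap or nest, the counts were 2 of 51 (3.92%) and 103 of 1394 (7.39%). The shares were 3.08% and 0.308% up to 2 kb, 1.35% and 1.39% from 2 to 5 kb, and 4.67% and 2.91% from 5 to 10 kb. The direction was thus not the same in all size classes, but outside 10 to 18 kb few genes had both kinds of summit.

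Glycolysis and glucose control had the largest share of genes with a reproducible intragenic site among the 17 lists examined, 6 of 26 (23.1%, exact 95% interval 8.97 to 43.6), against 4.16% of all genes that can hold one. Per Mb of eligible sequence this was 16.3 sites, against 3.04 over all genes. The lists were drawn up with earlier results of these data known, so these counts describe the lists and are not tests of them. The strongest was at ALDOA, fructose-bisphosphate aldolase, with folds of 67.8 in replicate 1 and 57.8 in replicate 2 (62.8 ± 7.02, SD, n = 2), 876 bp from a listed start of that gene and also within the overlapping LOC112694756. PFKP had 47.9 and 54.1 (51.0 ± 4.40). GPI, glucose-6-phosphate isomerase, had 27.0 and 22.2 (24.6 ± 3.44), 568 bp from a listed start. SLC16A3, the lactate exporter MCT4, had 19.03 and 15.7 (17.4 ± 2.35). None of these 4 genes had a reproducible summit at an own end. The other 2 of the 6 genes, which had weaker intragenic sites, did. In ALDOA, PFKP and GPI the sites are thus near the start of another listed transcript, although they lie 1.42 to 5.84 kb from the gene's end.

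AP-1 and Hippo pathway genes had 4 of 24 with a site (16.7%). TEAD3, a DNA-binding partner of YAP, led with folds of 52.4 and 55.9 (54.2 ± 2.49, SD, n = 2), 9.25 kb inside from its start. AMOTL2, which retains YAP in the cytoplasm, had 21.2 and 21.0, the AP-1 subunit gene FOSL2 15.2 and 14.2, and LATS2, a kinase that inhibits YAP, 12.6 and 11.7. These 4 sites had like values in both libraries, for which the IDR threshold selects. AMOTL2 also held a weaker matched summit that did not pass, with folds of 8.01 and 6.34.

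Among 39 established ERRα target genes, 5 had a site (12.8%). VEGFA, the angiogenic growth factor, had 36.7 and 39.6 (38.1 ± 2.10, SD, n = 2), 2.65 kb inside. SIRT5, a mitochondrial deacylase, had 15.8 and 16.2, at 782 bp from a listed start. WNT11, a secreted ligand of non-canonical Wnt signalling, had 12.4 in both replicates. CPT1A, which commits fatty acids to mitochondrial import, had 9.09 and 9.98. CDKN1A, the cell cycle inhibitor p21, had 7.93 and 7.26, with an IDR score of 543, just above the 540 needed. WNT11 and CDKN1A each also held a weaker matched summit that did not pass, at 5.78 ± 0.369 and 5.79 ± 1.47.

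Of 44 listed genes of oxidative phosphorylation, 2 had a reproducible intragenic site (4.55%), close to the 4.16% of all genes, while 24 had a reproducible summit at an end, against 4.63% of all genes. The list was drawn up with earlier results at gene ends known, so the latter count is no independent evidence. The 2 were the ATP synthase genes ATP5F1C, the gamma subunit (24.0 and 20.5), 9.48 kb from its start, and ATP5F1A, the alpha subunit (11.0 and 12.5), 489 bp from a listed start. The list is not complete. After their values were seen, COX7B, a subunit of cytochrome oxidase (23.6 and 20.1), and ATP5MC2, another ATP synthase gene (16.9 and 13.7), were also found to hold a reproducible site. Mitochondrial import, dynamics and genome genes also had 2, of 37. These were LONP1, the matrix protease (15.7 and 13.4), and POLRMT, the mitochondrial RNA polymerase (10.7 and 11.3).

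In the citric acid cycle and fatty acid oxidation, 4 of 43 genes had a site (9.30%). A summit within both MPC2, a subunit of the pyruvate carrier, and DCAF6 had folds of 24.0 and 23.4. ETFB, a subunit of the electron transfer flavoprotein, had 21.4 and 22.8, and PDK2, a kinase that inhibits pyruvate dehydrogenase, 21.8 and 21.3. CPT1A is the remaining gene of this list.

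Adhesion and signalling genes had sites of moderate strength. Of 46 focal adhesion and actin genes, 5 had one (10.9%), among them the myosin light chain gene MYL12B (17.1 and 17.3), PXN, which encodes paxillin (12.9 and 12.4), and ITGAV, the integrin alpha V gene (12.8 and 11.3). Growth factor receptors and MAPK feedback genes had 4 of 39 (10.3%). The receptor tyrosine kinase gene AXL held 2 reproducible sites, at 24.6 and 26.1 and at 7.50 and 8.32. The feedback inhibitors ERRFI1 (10.4 and 13.3), SPRED2 (10.9 and 8.90) and DUSP6 (8.05 and 7.91) held 1 each.

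The other lists lay nearer the 4.16% of all genes. Nuclear receptors and coregulators had 3 of 46, led by the orphan receptor gene NR2F6 (44.3 and 41.2), followed by the oestrogen receptor beta gene ESR2 (9.62 and 9.35) and the retinoic acid receptor gene RARA (9.13 and 8.06). Wnt and TGF-beta genes had 3 of 46, which were WNT7B (19.5 and 18.1 at its strongest), SMAD7 (18.6 and 16.1) and WNT11. Invasion and matrix genes had 2 of 39, namely the metalloprotease inhibitor TIMP2 (68.5 and 68.3) and SPARC (29.6 and 15.98), a matrix protein whose replicates were far apart. Cell cycle and MYC genes had 2 of 36, CDKN1A and the phosphatase gene CDC25B (55.4 and 41.1), the latter 97 bp from a listed start. Hypoxia and inflammation genes had 2 of 38, VEGFA and BNIP3L, a mitophagy receptor gene (20.6 and 22.6). Lysosome and autophagy genes had 2 of 31, the cathepsin D gene CTSD (12.8 and 12.01) and the lysosomal channel gene MCOLN1 (10.5 and 12.6). The circadian list had 1 of 20, the casein kinase gene CSNK1E (23.2 and 24.98). No reproducible site was found in 20 luminal and oestrogen-response genes (exact 95% interval up to 16.8%) or in 26 markers of liver, neurons and blood (up to 13.2%). With so few genes per list, intervals of most lists include the share of all genes.

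**Figure D5:**
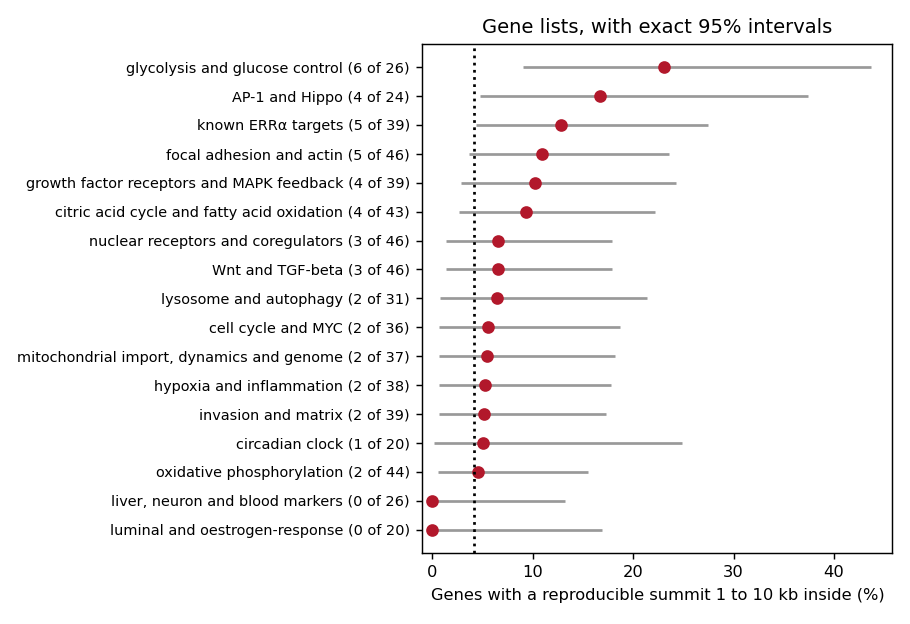
Share of genes in each of 17 lists with a reproducible summit 1 to 10 kb inside, in percent, with exact 95% intervals as bars and counts in brackets. The dotted line marks 4.16%, the share of all genes that can hold such a summit. Glycolysis and glucose control, AP-1 and Hippo, and known ERRα targets have intervals that lie above it. For AP-1 and Hippo and for known targets the lower limits, 4.74% and 4.30%, are close to it. The lists were drawn up with earlier results of these data known, so the intervals are not tests.

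Each replicate's own peak list gave the same share of sites. By the same rule, 2181 of 14032 peaks of replicate 1 (15.5%) and 1944 of 12603 of replicate 2 (15.4%) lay 1 to 10 kb inside a gene. Of these, 71.7% and 80.7% overlapped a matched peak. Those that did had median folds of 8.74 and 8.46, and those that did not had 5.30 and 5.28.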

How the data were processed

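ERRα ChIP-seq of MDA-MB-231 cells was represented by 3 deposited lists, 1 for each of 2 ChIP replicates called against 2 inputs and 1 of peaks matched by IDR. Per the submitters' processing notes, peaks come from MACS2 2.2.6 on build hg38, after Bowtie2 2.3.5 and Trim Galore 0.6.5, with deepTools, SAMtools and Picard also named. Their settings and order: not given in the sources used here. Each peak's fold is the authors' ratio of ChIP to local input at the summit. The deposited −log10 q values and the deposited IDR score, which ran from 154 to 1000, were used as filters only. No result given here was computed from the deposited −log10 p values or the deposited peak score. An IDR of 0.05 is a score of 540. No reads or input values per site were used, so depth gives no interval here.

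A site's fold in a replicate is that of its own list's highest peak within the matched interval (15 of the 1557 sites joined several peaks). Gene ends came from RefSeq GRCh38.p14. Strand and listed starts were known for 15811 of 19970 protein-coding genes, from the promoter table, whose overlapping windows of opposite strands carried the same bases in 2746 of 2746 pairs. Exact binomial 95% intervals count positions or genes, which are not independent, and do not cover further cultures. An SD over 2 replicates is imprecise. Because there is 1 group, no test of a contrast was possible, and classes are set side by side.

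No genome was used, so the planned search of sequence around every summit was run only where a summit lies in a promoter window. The 17 gene lists (614 of 615 entries found), the regions and the motifs were chosen with earlier results of these data known. Genes named are the 12 strongest sites, the 4 strongest per list, all known targets with a site, the 3 genes with most sites, the 3 widest peaks and the sites at the limits. 1 gene that this rule names is not reported here. Genes of the promoter windows were named after their values were seen. The placement and motif counts were tested on simulated data. Python 3.11.15, pandas 2.3.3, SciPy 1.17.1 and matplotlib 3.10.9 were used.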

Additional observations from a re-analysis of the deposited data

How the results depend on the processing

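Of 50 alternative values for 5 results, 38 stayed within the tolerance set for them and 12 moved. The tolerance was 1.5 times for a count, the exact 95% interval for a share and 0.207, the SD of the replicates' medians, for the median fold, so it is wide for counts. At an IDR of 0.01 there were 609 intragenic sites in place of 1557, but the 1557 are all matched sites without an IDR threshold. The like count is the 794 reproducible sites. The share of sites that passed was 39.1% in place of 51.0%. The median fold was 15.3 for the 609, against 12.8 for the 794 and 8.56 for all 1557. With an upper limit of 5 kb there were 944 sites, and 493 genes with a reproducible one in place of 776. Counting all matched peaks gave 1442 genes. Peaks with a −log10 q of at least 5 in both replicates passed IDR in 58.9% of cases, with a median fold of 9.37. In a single replicate's list, which also holds peaks without a match in the other, the median fold was 6.99 to 7.46 and the number of genes with a site, without an IDR threshold, 1755 to 1946. The other settings were lower limits of 500 bp and 2 kb, an upper limit of 20 kb, the ends of the holding gene or of all RefSeq genes, interval midpoints and, chosen after seeing the data, leaving out sites within 1 kb of a listed start. The counts within tolerance ran from 1221 to 2323 sites and from 598 to 1102 genes. The extended ERR element was centred within 50 bp of 4 of the 26 summits in a promoter window, and this share stayed within its wide interval under other distances and letters. No paired analysis was possible because no result comes from a test between groups.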

Other observations

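Among the chromosomes, intragenic sites 1 to 10 kb from a gene end made up 29.1% of matched summits on chromosome 19 and 24.6% on chromosome 22, both rich in genes, and 8.76% on chromosome 8, the lowest share. Per Mb of positions the rule covers, the density was 13.2 on chromosome 22, 11.3 on chromosome 20 and 1.62 on chromosome X. Copy number of chromosomes in this line was not analysed here.

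Of the 1557 sites, 289 (18.6%) had another matched summit within 5 kb. The share was 14.2% for summits at gene ends, 11.3% for those deeper inside genes and 10.9% outside genes.

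The hairpins of 4 microRNAs lay under an intragenic peak of this class. The number under other matched peaks is not given here, so this count has no comparison. The peak in BBC3, the gene of the apoptosis inducer PUMA, had folds of 60.02 in replicate 1 and 67.8 in replicate 2, and its summit lay 118 bp from the centre of the overlapping hairpins of MIR3190 and MIR3191. The peak in EML2 (34.6 and 27.6) covered MIR330, 1075 bp from its summit. The peak in DAPK3 (5.33 and 6.99), which covered MIR637, did not pass IDR.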
